A study of Homo sapiens with 10 samples.

Results

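DBTRG-05MG is an established human glioblastoma cell line. This account covers its early response to dibutyryl cAMP (dbcAMP), a form of cyclic AMP that crosses the cell membrane. The library at 6 h of 1 mM dbcAMP was set against the library at 0 h of the same line. The libraries were made from poly(A) RNA, and the deposited values were read as FPKM, fragments per kilobase of transcript scaled to library size. Of 20379 genes in the table, 12424 had a mean of 1 FPKM or more over the line's own time course (0, 6, 12, 24 and 48 h, 5 libraries) and were described. The series has 10 libraries in all, with 1 library for each time in DBTRG-05MG and in U87, another established glioblastoma line treated in the same way. With 1 library per time there is no replicate spread, so every difference below is a size without a test. No untreated library was taken at 6 h, and the effect of dbcAMP cannot be told apart from that of 6 h in culture. The series text gives another dose unit and a longer treatment than the sample labels, which were followed here.

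Cyclic AMP is a second messenger made by adenylyl cyclases when receptors coupled to the G protein Gs are engaged. It releases the catalytic subunits of protein kinase A, which phosphorylate the transcription factor CREB at genes that carry a cAMP response element. Among the classic early targets are genes that end the signal, such as phosphodiesterases and the CREM repressors, and transcription factor genes such as FOS and the NR4A orphan receptors.

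Few genes differed by 2-fold at 6 h, and among genes other than small RNA loci more were 2-fold higher than 2-fold lower. Sizes are given as the log2 difference, log2 of (FPKM + 1) at 6 h over (FPKM + 1) at 0 h. By this measure 149 of 12424 genes (1.2%) were at least 2-fold higher and 111 (0.893%) at least 2-fold lower. At 4-fold the counts were 22 higher (0.177%) and 17 lower (0.137%), and only IL11 was over 16-fold higher on the FPKM + 1 scale, which holds down the ratios of genes near 0 such as NPTX1. In all, 11284 genes (90.8%) lay within 1.5-fold, the median log2 difference was -0.08 and the SD over genes was 0.38. The 212 loci of microRNAs, snoRNAs and snRNAs made up much of the lower end, as described further on. Without them, 114 of 12212 genes (0.934%) were at least 2-fold higher, 65 (0.532%) at least 2-fold lower, 19 at least 4-fold higher and 0 at least 4-fold lower. The balance over all 12424 genes turned with the pseudocount, with 232 higher and 311 lower at 0.1 in place of 1, and 52 higher and 17 lower at 5, which discounts low genes. It also varied with the mean level over the time course of these 12212 genes. From 20 to 100 FPKM, 30 of 2947 genes were at least 2-fold higher and 6 lower, and from 100 FPKM upwards 13 of 647 were higher and 2 lower. From 1 to 5 FPKM, 33 of 3695 were higher and 37 lower. The filter averages the 0 h library with all the treated ones, so a gene low at 0 h can pass on its treated levels. Filtering on the 0 h and 6 h libraries alone gave 135 higher and 112 lower, or 54.7% higher. It kept 129 of the 149 higher genes and 104 of the 111 lower ones. These counts include small RNA loci.

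**Figure D1:**
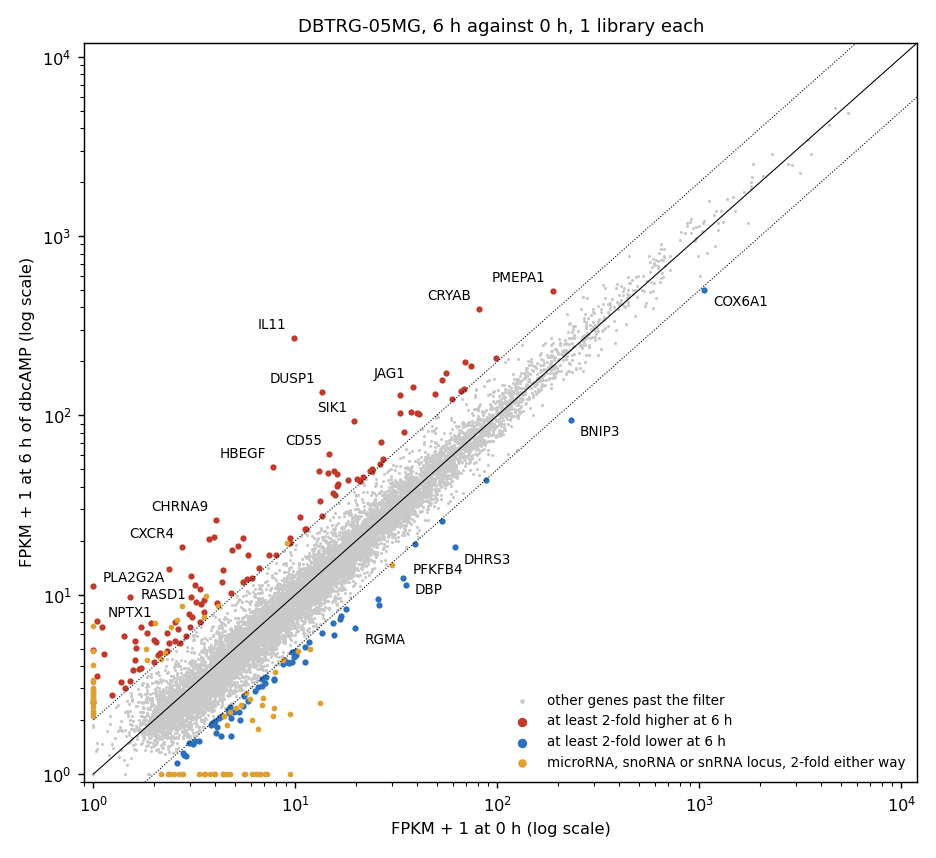
FPKM + 1 at 6 h of dbcAMP (vertical, log scale) against FPKM + 1 at 0 h (horizontal, log scale) for 12424 genes of DBTRG-05MG, 1 library each; the solid line marks equal values and the dotted lines 2-fold. Genes at least 2-fold higher (red) reach well into the range above 100 FPKM, where 13 were higher and 2 lower (blue) by mean level, and small RNA loci (yellow) lie at low values along both axes.

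The 6 h library was about as deep as the 0 h library, at 102.69% of it by the size of the step of 1 fragment at low values. The 10 libraries ran from 100 to 116.85% of the 0 h library on this scale, and total FPKM was 417582 at 6 h and 411734 at 0 h. For the 0 h library the depth was about 8.87 M fragments (M for mega), so that 1 fragment on a transcript of 2000 bases gives about 0.056 FPKM. Markers of the line's identity were checked. The neural progenitor gene NES stood at 46.8 FPKM at 6 h and 45.5 FPKM at 0 h, SOX2 at 29.5 and 36.6 FPKM, and the mesenchymal filament gene VIM at 2170 and 2072 FPKM. The astrocyte filament gene GFAP was near absent, at 0.11 FPKM at 6 h and 0.22 FPKM at 0 h. Of the markers of cells outside the line, 2 of 11 for leukocytes and microglia passed the filter (CD68 and LYZ), 1 of 7 for endothelium (ESAM) and 3 of 8 for fibroblasts and pericytes, and the leukocyte marker PTPRC was at 0 at both times. None of these 6 was 2-fold different. Summed over the whole lists, the leukocyte markers stood at 85.6 FPKM at 6 h and 107 FPKM at 0 h, the endothelial markers at 8.28 and 8.98 FPKM, and the fibroblast and pericyte markers at 59.8 and 65.2 FPKM. Each sum was mostly 1 gene. CD68 alone was at 81.4 FPKM at 6 h and 101 FPKM at 0 h, ESAM at 7.17 and 7.24 FPKM, and the pericyte marker ACTA2 at 42.9 and 43.8 FPKM. The part of such cells in the results was not tested. In bulk RNA, fewer cells in a given state and less RNA per cell cannot be told apart.

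Because CREB binds the palindrome TGACGTCA, promoters were searched for it. The windows came from RefSeq on GRCh38.p14 and run from 250 bases before to 50 bases after an annotated start. Both strands were read, and a gene counted if any of its windows held the motif. The share of genes with the element was larger in the classes higher at 6 h than in those lower. Within each side the order of the 2 classes rests on few genes, and the share was not tested. The share was 9.89% (9 of 91) for genes at least 2-fold higher, 8.22% (18 of 219) for those 1.5 to 2-fold higher, 3.82% (343 of 8978) within 1.5-fold, 2.62% (11 of 420) for those 1.5 to 2-fold lower and 2.27% (1 of 44) for those at least 2-fold lower. Over all 9752 genes with a window the share was 3.92%, and 1.85% of the 35116 windows in the table held it. The shorter core TGACG, which every TGACGTCA contains on both strands, was in 47.3, 38.8, 41.4, 27.1 and 20.5% of the same classes in the same order, against 40.7% of all. The variant TGACGCAA was in 0 of the 91 genes and in 1.12% of all. The GC box GGGCGG, a site of SP and KLF factors, was in 72.5, 73.1, 78.3, 75.2 and 77.3%. These shares depend on the windows per gene, with 166 for the 91 genes at least 2-fold higher and 14348 for all 9752. Counted by window, TGACGTCA was in 6.02% for genes at least 2-fold higher and 2.85% of all. TGACG was in 30.7 and 31.6% of windows, and GGGCGG in 49.4 and 66.3%, so the GC box was not even by window. The median GC content of the windows was 62.67% for genes at least 2-fold higher, 66.22% for those at least 2-fold lower and 65% for all. The part of base composition in the element's share was not tested. A match is a string of letters in a window, and binding was not measured.

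**Figure D2:**
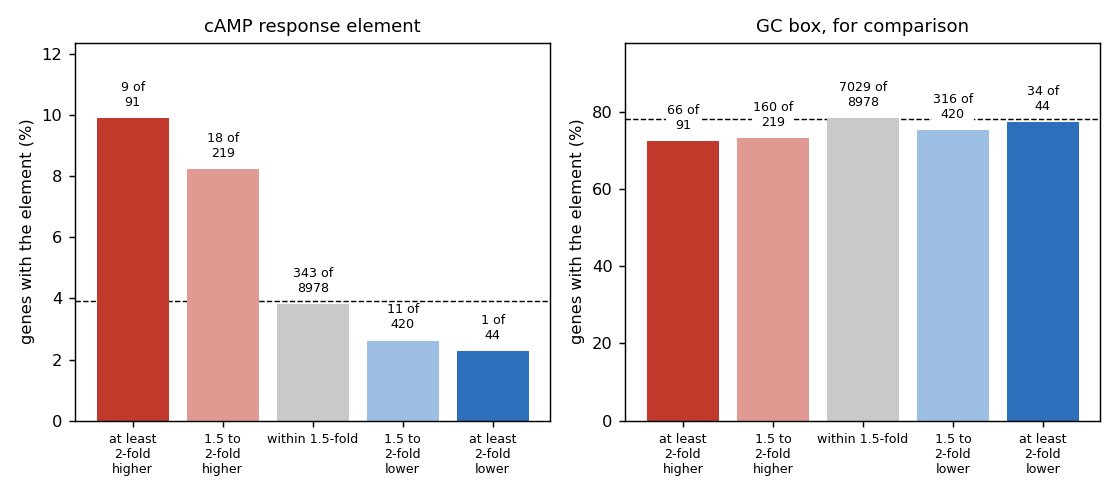
Share of genes (%) with the full cAMP response element (left) or the GC box (right) in a RefSeq promoter window, by size class at 6 h in DBTRG-05MG; the counts stand above the bars and the dashed lines mark the share over all genes with a window, 3.92 and 78%. The element was in 9.89% of genes at least 2-fold higher and 2.27% of those at least 2-fold lower. The GC box ran from 72.5 to 78.3% of genes. By window it was in 49.4% for genes at least 2-fold higher and 66.3% of all.

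The 9 genes at least 2-fold higher with the element were DUSP1, DIO2, AVPI1, CREM, CHMP1B, PMEPA1, ZBTB38, RCAN1 and TMEM86A. Windows of 5 of them are shown because they place the element beside genes described below. TGACGTCA is in capitals, all are read 5′ to 3′ on the gene's strand, and positions are those of its first base, with -1 the base before the start. DUSP1 has it at -125, DIO2 at -96, AVPI1 at -242, CREM at -50 of an internal start and PMEPA1 at -4. The other PMEPA1 windows searched lack it. Many genes described below lack it too. IL11, NR4A1, PDE4B, PDE3A and HBEGF have neither TGACGTCA nor TGACG on either strand of their windows. SIK1, NR4A3 and FOS have the shorter core without the full element.

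DUSP1, chr5:172771146-172771445, minus strand: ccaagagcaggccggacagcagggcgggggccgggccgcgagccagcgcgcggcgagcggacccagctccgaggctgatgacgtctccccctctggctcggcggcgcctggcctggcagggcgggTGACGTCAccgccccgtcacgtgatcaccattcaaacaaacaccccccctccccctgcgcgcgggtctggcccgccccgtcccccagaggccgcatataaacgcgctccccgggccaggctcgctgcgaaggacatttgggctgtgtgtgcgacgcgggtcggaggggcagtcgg

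DIO2, chr14:80212129-80212428, minus strand: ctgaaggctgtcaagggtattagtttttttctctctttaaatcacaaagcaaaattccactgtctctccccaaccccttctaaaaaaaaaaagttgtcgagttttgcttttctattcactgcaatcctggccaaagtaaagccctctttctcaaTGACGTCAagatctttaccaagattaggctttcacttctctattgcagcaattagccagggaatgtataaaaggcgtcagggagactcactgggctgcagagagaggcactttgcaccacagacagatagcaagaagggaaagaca

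AVPI1, chr10:97687192-97687491, minus strand: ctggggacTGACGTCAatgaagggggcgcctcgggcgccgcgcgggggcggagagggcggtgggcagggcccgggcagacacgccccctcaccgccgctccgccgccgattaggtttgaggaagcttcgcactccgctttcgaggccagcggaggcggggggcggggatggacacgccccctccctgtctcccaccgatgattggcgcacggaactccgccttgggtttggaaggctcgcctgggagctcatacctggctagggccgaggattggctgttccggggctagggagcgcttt

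CREM, chr10:35195652-35195951, plus strand: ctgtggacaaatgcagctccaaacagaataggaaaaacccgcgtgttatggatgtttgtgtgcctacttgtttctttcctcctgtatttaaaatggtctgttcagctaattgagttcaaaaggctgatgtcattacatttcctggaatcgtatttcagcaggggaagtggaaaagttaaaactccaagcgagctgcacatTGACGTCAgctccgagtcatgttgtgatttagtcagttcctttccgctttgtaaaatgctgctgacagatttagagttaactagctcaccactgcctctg

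PMEPA1, chr20:57709966-57710265, minus strand: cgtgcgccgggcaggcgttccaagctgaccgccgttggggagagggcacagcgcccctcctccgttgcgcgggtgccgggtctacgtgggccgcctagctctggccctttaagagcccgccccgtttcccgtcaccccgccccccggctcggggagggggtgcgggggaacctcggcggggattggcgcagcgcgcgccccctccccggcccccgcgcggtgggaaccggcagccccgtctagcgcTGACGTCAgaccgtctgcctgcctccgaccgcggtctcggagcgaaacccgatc

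IL11 and IL6, cytokines of the IL-6 family that signal through gp130, were among the genes furthest above their 0 h levels. IL11 stood at 270 FPKM at 6 h and 8.82 FPKM at 0 h, a log2 difference of 4.79 and the largest of all genes. The gene lies on chromosome 19 (55364389 to 55370463, minus strand, GRCh38). IL6 was at 19.9 FPKM at 6 h and 2.95 FPKM at 0 h, a log2 difference of 2.41. These were the 2 of 18 listed gp130 ligands, receptors and mediators that were at least 2-fold higher, and 0 were 2-fold lower. Of all genes 1.2% were 2-fold higher and 0.893% lower. The ligand gene LIF was at 36.1 FPKM at 6 h and 24.96 FPKM at 0 h, and the ligand gene CLCF1 at 36.6 and 20.6 FPKM. The shared receptor IL6ST was at 14.1 and 16.03 FPKM and IL11RA, the receptor that binds IL-11 itself, at 1.75 and 3.09 FPKM. The feedback inhibitor SOCS3 was at 10.7 FPKM at 6 h and 9.57 FPKM at 0 h. The ligands IL11 and IL6 thus differed most in this list, while IL6ST and the mediator STAT3 (46.2 and 48.0 FPKM) lay close to their 0 h levels and IL11RA was lower by a log2 difference of -0.58. Over time IL11 was at 8.82, 270, 262, 119 and 46.8 FPKM at 0, 6, 12, 24 and 48 h, so its highest library was that at 6 h.

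Immediate early genes and other listed CREB targets held more 2-fold higher members than any other list. Of 36 members past the filter, 13 were at least 2-fold higher (1.2% of all genes were) and 0 lower (0.893% of all), with a median log2 difference of 0.46 against -0.08 over all genes. All 3 NR4A orphan nuclear receptors were among them. NR4A1 was at 13.0 FPKM at 6 h and 1.36 FPKM at 0 h, NR4A3 at 3.69 and 0.13 FPKM, and NR4A2 at 2.80 and 0.57 FPKM. Their log2 differences were 2.57, 2.06 and 1.27. The AP-1 genes divided. FOSB (4.04 FPKM at 6 h and 0.63 FPKM at 0 h), JUNB (100.2 and 39.7 FPKM) and FOS (5.44 and 1.62 FPKM) were higher by 1.63, 1.32 and 1.30 log2 units. JUN was at 47.8 FPKM at 6 h and 62.6 FPKM at 0 h, and JUND at 23.8 and 30.6 FPKM. The zinc finger genes EGR1 (70.1 and 25.4 FPKM) and EGR3 (2.27 and 0.38 FPKM) and the early response gene IER2 (79.8 and 33.3 FPKM) were also over 2-fold higher. Not every classic target did so. The clock gene PER1 was at 7.51 FPKM at 6 h and 8.55 FPKM at 0 h, and the coactivator gene PPARGC1A, a cAMP target in liver, at 13.9 and 16.7 FPKM.

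Several genes whose products end or damp the cAMP signal were higher, while none of the listed components that make and sense it was 2-fold different. Of 22 feedback genes past the filter, 6 were at least 2-fold higher, against 1.2% of all genes, and 0 lower. The phosphodiesterases, which break down cAMP, gave 3 of these. PDE4B was at 11.6 FPKM at 6 h and 2.05 FPKM at 0 h, PDE3A at 5.61 and 0.73 FPKM, and PDE4D at 7.87 and 2.42 FPKM. PDE4A, of the same subfamily as PDE4B and PDE4D, was at 4.86 FPKM at 6 h and 5.70 FPKM at 0 h. CREM, whose internal start gives the ICER repressors, was at 8.72 FPKM at 6 h and 2.05 FPKM at 0 h. RGS2, which damps G protein signals, was at 140 and 67.2 FPKM. SIK1, a kinase that holds the CREB coactivators in the cytoplasm, was at 91.96 FPKM at 6 h and 18.5 FPKM at 0 h. SIK1 has a near-identical copy in the human reference, so its value is uncertain. Upstream, 0 of 19 receptors, cyclases, kinase subunits and coactivators were 2-fold different, and their median log2 difference was -0.03. A count of 0 of 19 lies near the share over all genes, 1.2% higher and 0.893% lower. GNAS, which encodes the Gs alpha subunit, was at 240 FPKM at 6 h and 237 FPKM at 0 h, and the kinase subunit PRKACA at 69.7 and 86.9 FPKM. The 1 member at least 1.5-fold lower was RAPGEF4, which encodes the cAMP sensor EPAC2, at 1.23 FPKM at 6 h and 2.36 FPKM at 0 h. The cyclase ADCY9 was at 3.89 and 5.67 FPKM.

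Among feedback genes of the MAP kinases, 1 phosphatase stood apart. DUSP1, which inactivates p38 and JNK as well as ERK, was at 133 FPKM at 6 h and 12.6 FPKM at 0 h, a log2 difference of 3.30. It was the only 1 of 20 listed genes at least 2-fold higher (1.2% of all genes were). DUSP7, DUSP5 and DUSP4 followed at 0.98, 0.96 and 0.84 log2 units. DUSP6, a phosphatase that follows ERK activity, was at 42.5 FPKM at 6 h and 46.0 FPKM at 0 h. SPRY1, an inhibitor of receptor tyrosine kinase signals, was the 1 member at least 2-fold lower (0.893% of all genes were). It was at 4.98 FPKM at 6 h and 14.6 FPKM at 0 h.

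**Figure D3:**
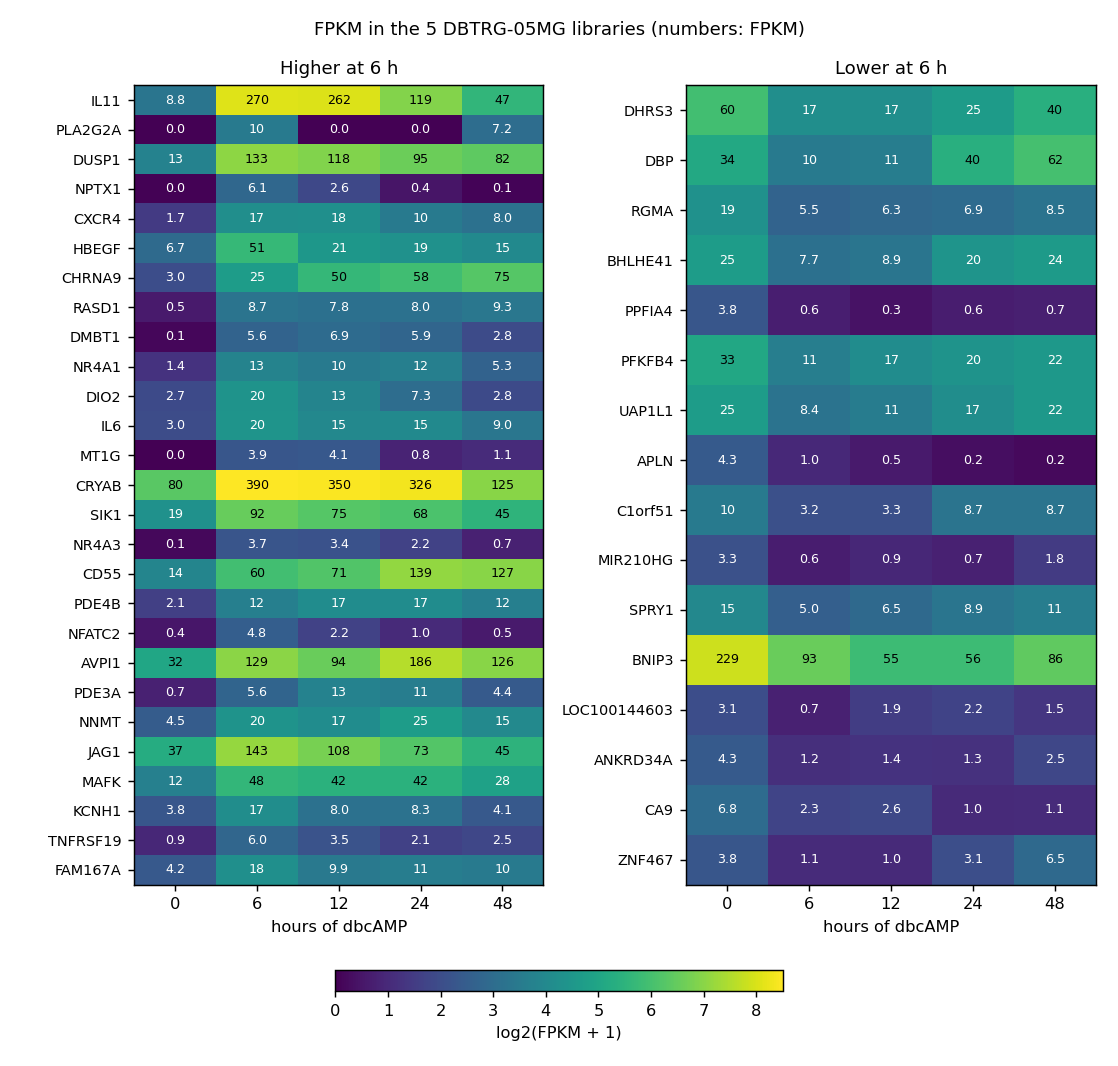
FPKM (numbers and colour, log2 of FPKM + 1) in each of 5 DBTRG-05MG libraries over the time course (0 to 48 h of dbcAMP), for the 27 genes furthest higher at 6 h and the 16 furthest lower, small RNA loci left out. IL11 and HBEGF were highest at 6 h, CHRNA9 went on to 75.2 FPKM at 48 h, and the clock gene DBP was below its 0 h level at 6 and 12 h and above it at 48 h.

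Growth factors and other secreted signals were higher in part. Of 51 genes outside the gp130 family, 5 were at least 2-fold higher, against 1.2% of all genes, and 0 lower. At least 1.5-fold lower were 5 others (5.51% of all genes were). Above 0 lay 30 genes and below it 21, against 38.5 and 61.4% of all genes. HBEGF, a ligand of the EGF receptor, was at 50.5 FPKM at 6 h and 6.74 FPKM at 0 h, and had its highest level of the series at 6 h. BMP6, a bone morphogenetic protein, was at 5.09 and 1.31 FPKM, and BDNF, a neurotrophin with CREB-driven promoters, at 6.97 and 2.54 FPKM. The hormone gene STC1 was at 188 and 73.1 FPKM and the lipase inhibitor ANGPTL4 at 15.6 and 7.0 FPKM. The neutrophil chemokine gene IL8 was at 450.1 FPKM at 6 h and 276 FPKM at 0 h, under 2-fold. At the other end, the macrophage growth factor CSF1 was at 17.4 FPKM at 6 h and 34.3 FPKM at 0 h, a log2 difference of -0.94. PTGES, which makes prostaglandin E2, was at 102 FPKM at 6 h and 32.0 FPKM at 0 h. It was the 1 of 7 prostanoid genes past the filter that was 2-fold higher (1.2% of all genes were). PLA2G2A, a secreted phospholipase A2, was listed at 0 at 0 h and stood at 10.2 FPKM at 6 h, then at 0, 0 and 7.16 FPKM at 12, 24 and 48 h. Its log2 difference of 3.49 rests on a 0 in a table without counts, and no ratio is given.

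Many targets of the TGF-beta and BMP pathways were higher, mostly by less than 2-fold. Of 33 targets and feedback genes, 4 were at least 2-fold higher (1.2% of all genes were) and 0 lower (0.893%). At least 1.5-fold higher were 13 (3.66% of all genes were) and at least 1.5-fold lower 0 (5.51%). The median log2 difference of the 33 was 0.33. PMEPA1, an inhibitor of Smad signals, was at 496 FPKM at 6 h and 186 FPKM at 0 h. The actin-binding gene TAGLN was at 26.1 and 9.56 FPKM. ID1 (136.5 FPKM at 6 h and 65.1 FPKM at 0 h) and ID4 (4.87 and 1.86 FPKM) encode inhibitors of helix-loop-helix factors, as do ID3 (247 and 132 FPKM) and ID2 (155 and 87.8 FPKM). All 4 ID genes were thus over 1.7 times their 0 h level. In the Notch and Wnt list of 24 genes, the Notch ligand JAG1 was at 143 FPKM at 6 h and 37.2 FPKM at 0 h, and the Notch target HES1 at 56.8 and 32.0 FPKM. The Wnt effector TCF7L1 was at 3.50 and 8.88 FPKM.

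Other genes far above their 0 h levels had varied roles. CXCR4, the receptor of the chemokine CXCL12, was at 17.5 FPKM at 6 h and 1.74 FPKM at 0 h. CHRNA9, a nicotinic receptor subunit, was at 25.2 and 3.02 FPKM, and KCNH1, a voltage-gated potassium channel, at 16.9 and 3.84 FPKM. NPTX1, a neuronal pentraxin, was at 6.14 FPKM at 6 h and 0.04 FPKM at 0 h, a value near that of 1 fragment. CD55, which protects cells from complement, was at 60.1 FPKM at 6 h and 13.7 FPKM at 0 h. It was the 1 of 11 complement genes past the filter that was 2-fold higher (1.2% of all genes were). The 11 had a median of -0.31. DIO2, the deiodinase that activates thyroid hormone, was at 19.5 FPKM at 6 h and 2.74 FPKM at 0 h. It was back at 2.77 FPKM at 48 h. RASD1, a Ras-like protein first found as a dexamethasone-induced gene, was at 8.74 and 0.52 FPKM, and AVPI1, named as a vasopressin-induced gene, at 129 and 31.8 FPKM. CRYAB, a small heat shock protein, was at 390 FPKM at 6 h and 79.8 FPKM at 0 h. It was the only 1 of 18 listed chaperones at least 2-fold higher (1.2% of all genes were). The 18 had a median of -0.16. The small Maf factor MAFK was at 48.3 and 12.1 FPKM, and the methyltransferase NNMT at 19.8 and 4.50 FPKM. The metallothionein MT1G, a member of a family of close copies and so uncertain, was listed at 0 at 0 h and at 3.88 FPKM at 6 h. LINC00473, a long noncoding RNA known as a CREB target, was at 2.53 FPKM at 6 h and 0.05 FPKM at 0 h, and was named after its values were seen.

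Most genes of protein synthesis were slightly above their 0 h levels. Of 67 ribosomal protein genes past the filter, 65 were above 0 (38.5% of all genes were), with a median log2 difference of 0.29 and 0 at least 2-fold. RPLP2, a protein of the ribosomal stalk, had the largest difference at 0.79 log2 units, and RPL10A the lowest at -0.13. Ribosomal proteins have many pseudogenes, which can take or lend fragments. Of 30 genes of ribosome biogenesis, 29 were above 0, with a median of 0.28. The share over all genes is not matched for level. Among all genes other than small RNA loci, the median was -0.15 from 1 to 5 FPKM and 0.07 from 100 FPKM upwards. Of 29 housekeeping genes, 15 were above 0, with a median of 0.002. The amino acid carrier SLC7A5 was at 156 FPKM at 6 h and 52.3 FPKM at 0 h, while SLC3A2, the partner with which it forms a transporter, was at 72.6 and 60.9 FPKM. Of 20 amino acid carriers past the filter, SLC7A5 was the 1 at least 2-fold different (1.2% of all genes were 2-fold higher).

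**Figure D4:**
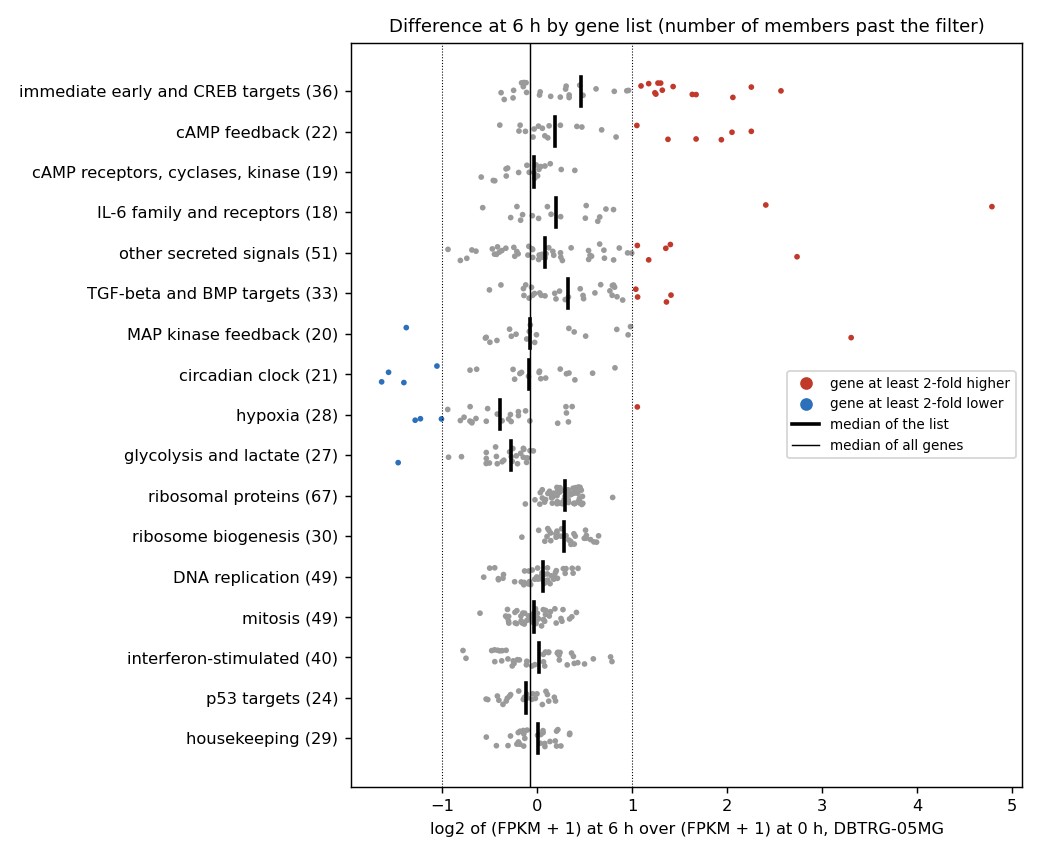
Log2 difference of each gene (points) in 17 gene lists at 6 h in DBTRG-05MG, with the list median (thick bar), the median of all genes (thin line, -0.08) and 2-fold either way (dotted lines); the number of members past the filter stands in brackets and the vertical scatter is for display. IL11 lies furthest right at 4.79 and DBP furthest left at -1.64, and the medians of the ribosomal (0.29) and glycolytic (-0.28) lists sit on opposite sides of 0.

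At the lower end, the clock list held more 2-fold lower genes than any other. Of 21 clock genes past the filter, 4 were at least 2-fold lower (0.893% of all genes were) and 0 higher. The list as a whole was not lower, with 10 genes above 0, 11 below 0 and a median log2 difference of -0.09 against -0.08 over all genes. DBP, a PAR bZIP factor driven by the clock, was at 10.3 FPKM at 6 h and 34.2 FPKM at 0 h. Its relative TEF was at 3.84 and 9.06 FPKM. The repressors BHLHE41 (7.72 FPKM at 6 h and 24.8 FPKM at 0 h) and C1orf51, also named CIART (3.21 and 10.2 FPKM), were lower by like amounts. PER3 (6.97 and 12.0 FPKM) and NR1D1 (59.0 and 92.5 FPKM) were lower by 0.71 and 0.64 log2 units. The activator ARNTL, by contrast, was at 29.1 FPKM at 6 h and 19.1 FPKM at 0 h, and PER2 at 9.0 and 4.67 FPKM. BHLHE40 was at 67.1 and 54.1 FPKM, and PER1 at 7.51 and 8.55 FPKM. DBP was at 34.2, 10.3, 11.0, 40.0 and 62.3 FPKM at 0, 6, 12, 24 and 48 h, and BHLHE41 at 24.8, 7.72, 8.87, 20.3 and 23.5 FPKM. Both genes were thus low at 6 and 12 h and near or above their 0 h level from 24 h. With no untreated library at these times, dbcAMP and the state of the clock at the start cannot be told apart.

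Genes of hypoxia and glycolysis were mostly lower, by less than 2-fold in most cases. Of 28 hypoxia genes, 22 were below 0 (61.4% of all genes were) and 22 below the median of all genes. At least 1.5-fold lower were 11 of them, against 5.51% of all genes. BNIP3, a mitophagy receptor, was at 93.3 FPKM at 6 h and 229 FPKM at 0 h. The carbonic anhydrase CA9 was at 2.33 and 6.82 FPKM, and the lipid droplet gene HILPDA at 3.34 and 7.74 FPKM. These were the 3 members at least 2-fold lower (0.893% of all genes were), and ANGPTL4 was the 1 at least 2-fold higher (1.2% of all). The collagen prolyl hydroxylase P4HA1 was at 19.98 FPKM at 6 h and 39.4 FPKM at 0 h, the vasodilator ADM at 11.6 and 21.1 FPKM, and the angiogenic factor VEGFA at 35.5 and 57.9 FPKM. HIF1A, the oxygen-sensing factor itself, was at 56.9 and 73.8 FPKM. All 27 glycolytic and lactate genes past the filter were below 0, and 25 were below the median of all genes, with a median log2 difference of -0.28. PFKFB4, which makes the activator of phosphofructokinase, was the 1 at least 2-fold lower (0.893% of all genes were). It was at 11.4 FPKM at 6 h and 33.2 FPKM at 0 h. PDK1, which inhibits pyruvate dehydrogenase, was at 5.90 and 12.2 FPKM, and hexokinase HK2 at 5.88 and 8.99 FPKM. Lactate dehydrogenase LDHA was at 807 FPKM at 6 h and 1095 FPKM at 0 h, and the glucose carrier SLC2A1 at 129 and 133 FPKM. MIR210HG, the host gene of a hypoxia-induced microRNA, was at 0.62 FPKM at 6 h and 3.28 FPKM at 0 h, and was named after its values were seen. Oxygen and medium were not recorded in the labels, and the part of cell density or feeding was not tested.

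Outside these lists, DHRS3, a retinaldehyde reductase, was the gene furthest below its 0 h level once small RNA loci are set aside, at 17.4 FPKM at 6 h and 60.3 FPKM at 0 h. Retinoic acid receptors RARB (5.29 and 10.5 FPKM) and RARG (7.26 and 15.0 FPKM) were lower by 0.87 and 0.95 log2 units, under 2-fold on the FPKM + 1 scale. The retinoid genes CYP26B1 (4.29 and 2.51 FPKM) and CYP26A1 (0.97 and 0.36 FPKM) were higher by 0.59 and 0.53 log2 units. In the list of nuclear receptors and hormone metabolism, 11 of 25 genes lay above 0 (38.5% of all genes did) and 14 below, with a median of -0.13. RGMA, a guidance molecule and BMP coreceptor, was at 5.50 FPKM at 6 h and 18.8 FPKM at 0 h. The neurofilament gene NEFL was at 24.8 and 52.1 FPKM. COX6A1, a subunit of cytochrome oxidase, was at 500.3 FPKM at 6 h and 1053 FPKM at 0 h. It was the 1 of 47 nuclear-encoded respiratory chain genes at least 2-fold different (0.893% of all genes were 2-fold lower). The median of the 47 was 0.02. TXNIP, an inhibitor of glucose uptake, was at 59.7 and 112 FPKM.

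Cell division genes stood near their 0 h levels. Of 49 replication genes, 0 were 2-fold different, 30 were above 0 (38.5% of all genes were) and the median log2 difference was 0.063. A count of 0 of 49 lies near the share over all genes, 1.2% higher and 0.893% lower. For 49 mitosis genes the median was -0.04, again with 0 at 2-fold. The proliferation marker MKI67 was at 76.0 FPKM at 6 h and 79.9 FPKM at 0 h. The cyclin CCND1 was at 541 and 389 FPKM, and the inhibitor CDKN1A at 271 and 293 FPKM. Among 24 p53 targets the median was -0.12 with 0 at 2-fold, and the stress cytokine GDF15 was at 391 FPKM at 6 h and 359 FPKM at 0 h. Of 40 interferon-stimulated genes, 20 were above 0 and 20 below (38.5 and 61.4% of all genes were), with 0 at 2-fold.

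Loci of small RNAs gave most of the extreme lower values. Of the 212 past the filter, 35 (16.5%) were at least 2-fold higher and 46 (21.7%) at least 2-fold lower, and the SD of their log2 differences was 1.14 against 0.35 for other genes. All 17 genes at least 4-fold lower were such loci, and so were 26 of the 30 lowest. Of these 26, 20 were listed at 0 at 6 h, and the 26 had from 2.32 to 12.2 FPKM at 0 h. That 0 h value was in the median 3.26 times the lowest value above 0 listed for the same locus in any library. SNORD42B, a snoRNA gene, had the lowest log2 difference of all, at -3.23, with a 0 at 6 h. Poly(A) libraries do not measure mature microRNAs, and values at such short loci come from few fragments.

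The U87 libraries at 6 and 0 h offer a comparison with no shared control. Of 11303 genes past the filter in U87, 343 (3.03%) were at least 2-fold higher and 301 (2.66%) at least 2-fold lower. Over the 10682 genes past the filter in both lines, the log2 differences of DBTRG-05MG and U87 had a Pearson r of 0.32 and a Spearman rho of 0.28, as a description over genes that share the pipeline and expression level. Of genes at least 2-fold higher, 37 were so in both lines, which is 36.3% of the 102 in DBTRG-05MG and 13.5% of the 274 in U87. Of genes at least 2-fold lower, 17 were shared, 25.4% of 67 in DBTRG-05MG and 6.51% of 261 in U87. Both shared sets hold small RNA loci, such as MIR27B and SNORD87 among those higher and MIR940 and SNORD32A among those lower. Most such loci cannot be compared at this depth, and the shared counts were not made without them. IL11 had the same size in both lines, with log2 differences of 4.79 in DBTRG-05MG and 4.77 in U87. IL6 (2.41 and 2.61), PDE4B (2.05 and 2.13), MAFK (1.91 and 2.01) and SLC7A5 (1.56 and 1.80) were also alike. In all, 546 genes had differences at least 2-fold apart, 245 of them higher in DBTRG-05MG.

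Several early genes had larger differences in 1 of the lines. NR4A1 had a log2 difference of 2.57 in DBTRG-05MG and -0.07 in U87, JUNB 1.32 and 0.05, and EGR1 1.43 and 0.20. For NR4A2 the values were 1.27 in DBTRG-05MG and 2.67 in U87, and for DIO2 2.46 and 5.06. PDE3A was listed at 0 in U87 at both times, and CXCR4 reached 0.14 FPKM there at 6 h, so these genes have no U87 response to compare. The hypoxia list had medians of opposite sign, with a median over 27 genes of -0.37 in DBTRG-05MG and 0.33 in U87, and 23 of the 27 lay lower in DBTRG-05MG. ADM had log2 differences of -0.81 and 2.23 and VEGFA of -0.69 and 1.21 in DBTRG-05MG and U87. CA9 (-1.23 and -0.57) and ANGPTL4 (1.05 and 1.43) had the same sign in both lines. The glycolytic list had a median over 27 genes of -0.28 in DBTRG-05MG and -0.005 in U87, where 13 lay above 0 and 14 below. In that list PFKFB4 had log2 differences of -1.47 and 0.83, and SLC2A1 of -0.04 and 2.02. Replication genes were near 0 in DBTRG-05MG (0.063) and lower in U87 (-0.60). DBP was lower in both lines, by log2 differences of -1.64 and -1.26. With 1 library per line and time, none of these differences between the lines was tested.

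**Figure D5:**
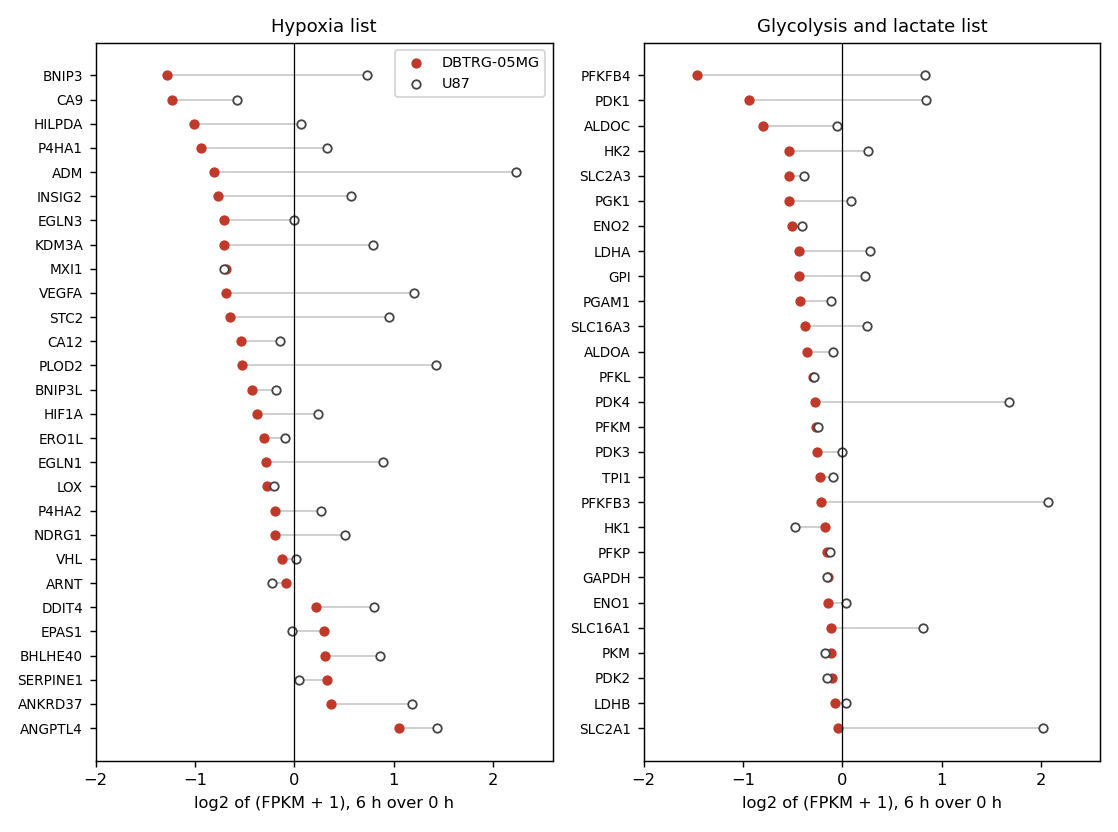
Log2 of (FPKM + 1) at 6 h over 0 h for the 28 hypoxia genes (left) and 27 glycolytic and lactate genes (right), DBTRG-05MG as filled points and U87 as open points, 1 library per point and time. In DBTRG-05MG 22 of 28 hypoxia genes and all 27 glycolytic genes lie below 0. In U87 the hypoxia genes ADM and VEGFA lie above 0, as do 13 of the 27 glycolytic genes, PFKFB4 and SLC2A1 among them.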

How the data were processed

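Poly(A) RNA of 2 lines was sequenced over 48 h of 1 mM dbcAMP, with 10 libraries and 1 per line and time. Bowtie2, HISAT and RSEM are named in the submitters' processing notes, as is build hg38. Their versions are not given in the sources used here. The authors deposited 1 table of normalised values, read as FPKM because low values step in fragments scaled by transcript length. The unit itself is not named. The value 0.002 stands for 0 and was read as 0. Dates had replaced 25 gene symbols, 19 of them past the filter and 1 at least 2-fold different, and these were not named. Symbols were matched to RefSeq (19534 found), and positions came from GENCODE release 29 on GRCh38.

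Log2((FPKM + 1) at 6 h over (FPKM + 1) at 0 h) was computed for every gene whose DBTRG-05MG mean (5 libraries) reached 1 FPKM, and counted at 2-fold. This scale understates differences of genes with low values. With 1 library per group no test was made. The members, the 45 gene lists and the naming rule were chosen with earlier results of these data known. The rule took the 30 highest and 30 lowest genes, up to 4 members per list in each direction and a fixed set. Named after their values were seen were LINC00473, MIR210HG, CHMP1B, ZBTB38, RCAN1, TMEM86A, EGR3, IER2, RGS2, ID2, PER3, NR1D1, GNAS, PRKACA, SOCS3, STAT3, SLC3A2, HIF1A, NES and, in the plot of levels, genes other than the 30 highest and 30 lowest. Promoters were shown for named genes at least 2-fold higher with TGACGTCA. Depth was estimated from 85 genes (quartiles 8.83 and 9.05 M fragments) and covers no preparation error. The computation was tested on simulated data. Python 3.11.15 with numpy 2.4.6, pandas 2.3.3 and matplotlib 3.10.9 was used. Other pseudocounts, filters and scalings were tried, and the exclusion of small RNA loci was added after seeing the data.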

Additional observations from a re-analysis of the deposited data

Results flagged for a closer look

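The phospholipase gene PLA2G2A had differences of opposite sign in the lines at 6 h, with a log2 difference of 3.49 in DBTRG-05MG and -2.05 in U87. It was listed at 10.2 FPKM at 6 h and at 0 at 0 h in DBTRG-05MG, and at 1.68 FPKM at 6 h and 10.1 FPKM at 0 h in U87. The difference was not tested, since each line has 1 library per time.

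In 3 gene lists the medians of the lines had opposite signs and lay at least 0.5 log2 units apart, and these differences were not tested either. The hypoxia list had a median of -0.37 in DBTRG-05MG and 0.33 in U87 over 27 genes. The replication list had a median of 0.063 in DBTRG-05MG and -0.60 in U87 over 49 genes. The complement list had a median of -0.23 in DBTRG-05MG and 0.52 in U87 over 9 genes.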

How the results depend on the processing

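The counts of genes depended most on the pseudocount. With a pseudocount of 0.1, 232 genes were at least 2-fold higher and 311 lower, 20 list members were at least 2-fold lower against 12, and 941 genes differed between the lines against 546. With a pseudocount of 5, 52 genes were higher and 17 lower, 25 list members were higher against 41 and 5 lower, and 193 genes differed between the lines. A mean of at least 5 FPKM left 86 higher and 32 lower. Leaving out microRNA, snoRNA and snRNA loci, chosen after seeing the data, left 65 lower. Genes higher made up 57.3% of the 2-fold genes, against 42.7% with a pseudocount of 0.1, 75.4% with 5, 72.9% at a mean of at least 5 FPKM and 67.2% after median centring (172 higher and 84 lower). The other counts stayed within 1.5 times. With a pseudocount of 5, 66 named genes fell under 2-fold, and 4 did after median centring. Only named genes past 2-fold at a pseudocount of 1 could fall, and many of the 395 were not past it. With 0.1, 14 more passed it. No named gene past 2-fold and no list median at least 0.25 log2 units from 0 changed sign under the settings run. Some list medians of that size fell under 0.25, in 4 lists with a pseudocount of 5 and 2 after median centring. Those 2 were the glycolytic and complement lists. The causes were not tested. No paired analysis was possible because each line and time has 1 library. Genes near 1 fragment, and most small RNA loci, cannot be compared at this depth.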
